A study of Arabidopsis thaliana with 3 samples.

Results

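The genes described here are those that responded in both of a pair of Arabidopsis thaliana mutants, crwn1 crwn2 and pwo1, so that the mutants can be set side by side through their common wild type. A gene was a member when its locus stood in both of the authors' deposited tables, one per mutant against Col-0, so the members were chosen by the p-values of the same comparisons described below. This gave 508 genes of the 2666 listed in either table, which is 26.3% of the 1935 genes listed for crwn1 crwn2 and 41.0% of the 1239 listed for pwo1. The study profiled RNA of whole seedlings harvested at 14 days, with 3 biological replicates per genotype by the series' design text and 1 sample record per genotype. The groups were the crwn1 crwn2 double mutant, the pwo1 mutant and the wild type Col-0. All groups were stratified as seeds for 2 days and grown vertically on MS plates in long days, and the labels give neither the alleles nor any further treatment.

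CRWN1 and CRWN2 are long coiled-coil proteins at the inner face of the nuclear envelope, where they take the place that lamins have in animals, and loss of both gives small, round nuclei. PWO1 is a PWWP-domain protein that binds the chromatin repressors of the Polycomb group. Salicylic acid, to which many of the genes below respond, is the plant hormone of defence against biotrophic pathogens. It acts beside N-hydroxypipecolic acid, the mobile signal of systemic resistance, which is made through ALD1 and FMO1. Iron shortage in plants raises a small set of bHLH transcription factors, which switch on ferric reduction and iron import in the root, whereas surplus iron raises ferritin.

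Each value below is a log2 fold change of a mutant over Col-0 by edgeR, as the authors' deposited tables give it, and each difference is the crwn1 crwn2 value minus the pwo1 value. A difference of 1 means a 2-fold higher ratio in crwn1 crwn2. The error given with a difference is an approximate 95% interval, implied from the p-values and fold changes of the authors' deposited tables. It treats the comparisons as independent although they share the Col-0 libraries, and it allows neither for the selection of the genes nor for the number of genes. No test was made, since the same contrasts chose the genes. CRWN1 and CRWN2 stood at -3.03 and -2.42 in the authors' deposited crwn1 crwn2 table, which sets its sign. PWO1 was not listed for pwo1, so the sign there rests on a header of the same form, and with the sign turned the genes called alike and opposite would change places, and every difference and its rank would change. Values per library and their depth are unknown, so the spread between replicates cannot be shown. In whole seedlings fewer cells of a type and less RNA per cell cannot be told apart.

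The tissue label could be checked only through fold changes. None of the shared genes is among 10 root, 8 seed or 6 flower markers, and of 7 leaf markers 1 was shared, the chloroplast regulator GLK1. In the authors' deposited tables GLK1 stood at -0.73 in crwn1 crwn2 and -0.76 in pwo1. Of the leaf markers 4 more were listed for pwo1 only, 3 lower and 1 higher. Of the flower markers 1, SEP3, was listed for pwo1 only, at 1.46 in the authors' deposited table. Whether a change in tissue makeup moved with the results was not tested.

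Listing is the background of membership. Of the 37899 loci of the reference 5.11% were listed for crwn1 crwn2, 3.27% for pwo1 and 1.34% for both, and the number of genes the authors tested is unknown. The largest edgeR p-values among the shared genes were 0.00583 in the authors' deposited crwn1 crwn2 table and 0.00383 in the pwo1 table. Just inside these limits, ETP1 stood at -0.44 in crwn1 crwn2 and -0.46 in pwo1 in the authors' deposited tables, and AT3G46690, a glycosyltransferase gene, at 1.55 and 0.84 in the same order. Genes just outside were not used here, as genes that missed the limits have no row.

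Most shared genes lay on the same side of Col-0 in both mutants. By the authors' deposited values, 301 were lower in both, 162 higher in both, 38 (7.48%) higher in crwn1 crwn2 and lower in pwo1, and 7 (1.38%) lower in crwn1 crwn2 and higher in pwo1, so that 45 (8.86%) had opposite signs. The rule fixes only that a gene is in both tables, and because both tables share Col-0 nothing is read from the number on the same side. Of the 508 genes, 200 (39.4%) were higher in crwn1 crwn2 and 169 (33.3%) higher in pwo1. Among the 1427 genes listed for crwn1 crwn2 only, 62.6% were higher, and among the 731 listed for pwo1 only, 49.0%. These shares are the background of the counts of list members listed for 1 mutant only. The median absolute log2 fold change of shared genes was 0.92 in crwn1 crwn2 and 0.91 in pwo1 in the authors' deposited tables, against 0.85 and 0.76 for genes listed in 1 table only.

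**Figure D1:**
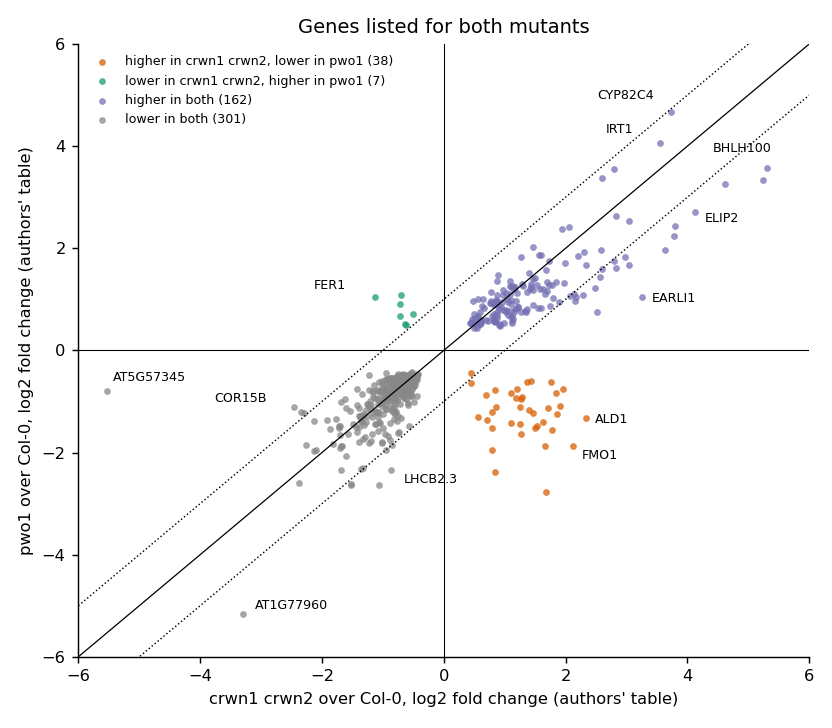
The log2 fold change in crwn1 crwn2 over Col-0 (horizontal axis) is plotted against that in pwo1 over Col-0 (vertical axis) for the 508 shared genes, with the 4 sign patterns in colour, equal values on the solid line and differences of 1 and -1 on the dotted lines. The 38 genes higher in crwn1 crwn2 and lower in pwo1 lie at the lower right, and 7 genes lie at the upper left.

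Over all 508 genes the median difference was 0.07. In 377 genes (74.2%) the difference was within 0.5, in 63 (12.4%) it was 1 or more and in 11 (2.17%) it was -1 or less. The median standard error of a difference was 0.30, so a difference of 0.5 is often within the error, and 91 genes (17.9%) had an approximate interval without 0. All 45 opposite genes are among them, which their listing in both tables makes nearly certain, and of genes with the same sign 21 of 162 higher in both and 25 of 301 lower in both are. Genes lower in both were close to equal in size, with medians of -0.82 in crwn1 crwn2 and -0.83 in pwo1 in the authors' deposited tables and a median difference of 0.01. Among genes higher in both the medians were 1.13 in crwn1 crwn2 and 0.97 in pwo1 in the authors' deposited tables. Of these 162 genes 110 were stronger in crwn1 crwn2, against 283 of all 508 shared genes and 147 of the 301 lower in both. The genes nearest to the limit of 1 were AT1G19960, with a difference of 1.004, and AT1G27020, with 1.01, inside it, and the expansin gene EXPA8, with 0.998, and the threonine aldolase gene THA1, with 0.99, outside it.

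Genes of salicylic acid and systemic immunity were among the 38 that were higher in crwn1 crwn2 and lower in pwo1, with 3 of the synthesis list and 5 of the output list. FMO1 stood at 2.12 in crwn1 crwn2 and -1.88 in pwo1 in the authors' deposited tables. Its difference was 4.0 (interval 2.69 to 5.30), a ratio 16.0-fold higher in crwn1 crwn2 than in pwo1. ALD1, which encodes the aminotransferase that starts the same pathway, stood at 2.34 in crwn1 crwn2 and -1.33 in pwo1 in the authors' deposited tables, a difference of 3.67 (interval 2.47 to 4.86). ICS1, the isochorismate synthase that supplies most salicylic acid in defence, stood at 1.75 in crwn1 crwn2 and -0.62 in pwo1 in the authors' deposited tables, and its difference was 2.37 (interval 1.78 to 2.97). All 3 are enzymes of signal synthesis, and each lay above Col-0 in crwn1 crwn2 and below it in pwo1.

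The synthesis list held 19 genes, of which 5 were shared. ADR1, a helper immune receptor, was the shared member higher in both, at 1.12 in crwn1 crwn2 and 0.67 in pwo1 in the authors' deposited tables. ICS2, the second isochorismate synthase gene, was lower in both, at -1.09 in crwn1 crwn2 and -1.05 in pwo1 in the authors' deposited tables. ICS2 overlaps another annotated gene, so its reads are uncertain. The median difference of the 5 was 2.37, and over all shared genes it was 0.07. This contrast mostly restates the signs, as opposite signs alone fix a difference near 1 or more for 3 of the 5. Over all 38 genes higher in crwn1 crwn2 and lower in pwo1 the median difference was 2.54. ADR1 and ICS2 had differences of 0.46 and -0.035. A further 7 members were listed for crwn1 crwn2 only, all higher, and 1 for pwo1 only, lower. Over all genes, 1427 were listed for crwn1 crwn2 only, 62.6% of them higher, and 731 for pwo1 only, 49.0% of them higher.

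Downstream of salicylic acid, 7 of 34 list members were shared and their median difference was 2.22. All 7 differences were 1 or more, which for the 5 opposite genes is nearly fixed by their signs. Of the 38 genes higher in crwn1 crwn2 and lower in pwo1, 37 had a difference of 1 or more. LURP1, needed for full resistance to an oomycete, stood at 1.78 in crwn1 crwn2 and -1.55 in pwo1 in the authors' deposited tables, a difference of 3.33 (interval 2.75 to 3.91). DMR6, an enzyme that hydroxylates salicylic acid and so limits it, stood at 1.96 in crwn1 crwn2 and -0.76 in pwo1 in the authors' deposited tables, a difference of 2.71 (interval 2.25 to 3.18). The list therefore includes a gene of turnover as well as genes of output. WRKY54, a transcription factor of the same hormone response, stood at 1.4 in crwn1 crwn2 and -1.17 in pwo1 in the authors' deposited tables. PR5, a secreted thaumatin-like protein gene used as a marker of the response, stood at 1.28 in crwn1 crwn2 and -0.92 in pwo1 in the authors' deposited tables. ACD6, a membrane protein with ankyrin repeats that promotes salicylic acid accumulation, had the smallest crwn1 crwn2 value of the opposite genes in this list, at 0.57 in crwn1 crwn2 against -1.31 in pwo1 in the authors' deposited tables.

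The other members of the output list were higher in both mutants. EARLI1, of the lipid transfer protein family, stood at 3.26 in crwn1 crwn2 and 1.04 in pwo1 in the authors' deposited tables. Its difference of 2.22 (interval 1.22 to 3.21) was the largest among genes higher in both, though it shares its position with a second annotated gene and sits among near relatives. WRKY18, a pathogen-induced transcription factor, stood at 2.17 in crwn1 crwn2 and 1.04 in pwo1 in the authors' deposited tables. Another 15 members of this list were listed for crwn1 crwn2 only, all higher, and 1 for pwo1 only, lower. They stand beside the same 1427 and 731 genes, of which 62.6% and 49.0% were higher. A gene listed for 1 mutant is not shown to be unchanged in the other.

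**Figure D2:**
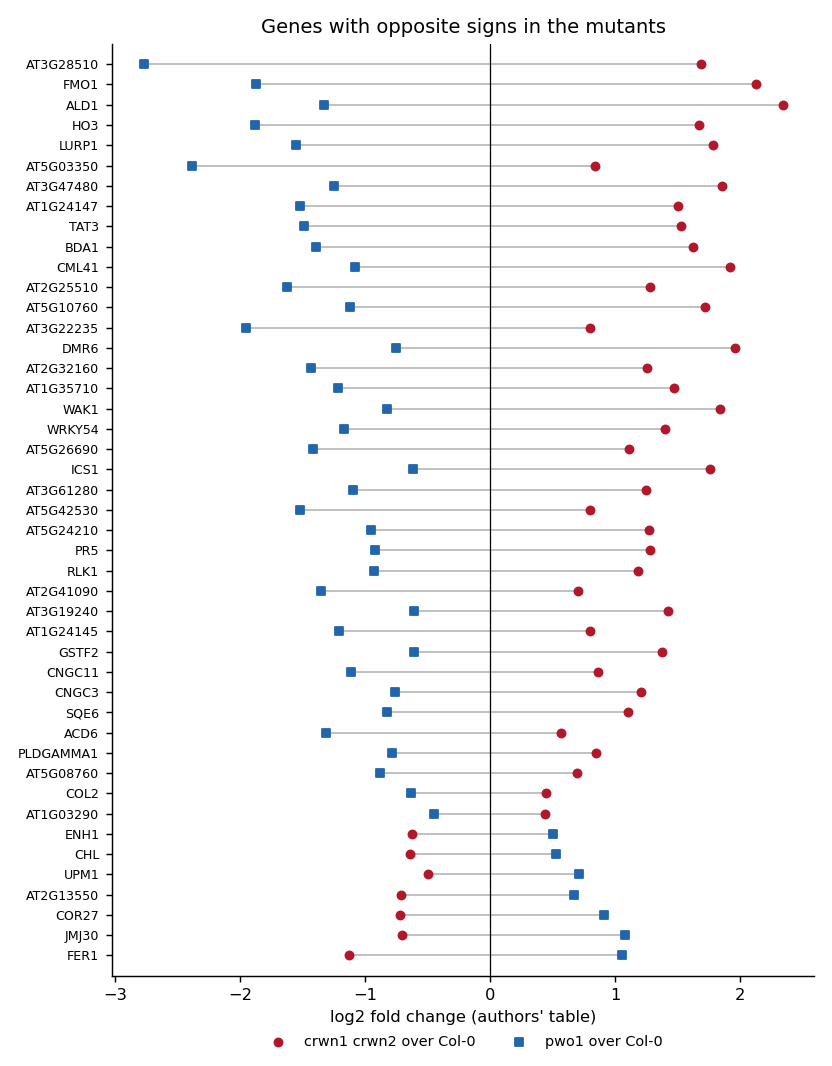
The 45 genes with opposite signs are drawn as rows, with the log2 fold change over Col-0 on the horizontal axis, circles for crwn1 crwn2, squares for pwo1 and a line for the difference. Rows run from AT3G28510 at the top, with a difference of 4.45, to FER1 at the bottom, with -2.19.

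The opposite class reached beyond the listed pathway genes. Its 38 members that were higher in crwn1 crwn2 had medians of 1.28 in crwn1 crwn2 and -1.19 in pwo1 in the authors' deposited tables. The differences ranged from 0.89 to 4.45 with a median of 2.54. The smallest absolute log2 fold change of a shared gene was 0.43 in crwn1 crwn2 and 0.43 in pwo1 in the authors' deposited tables, so opposite signs alone fix a difference near 1 or more. AT3G28510, annotated as a nucleoside triphosphate hydrolase, had the highest difference, with the pwo1 sign as read from the header, 4.45 (interval 3.2 to 5.70), from 1.68 in crwn1 crwn2 and -2.77 in pwo1 in the authors' deposited tables. BDA1, a membrane protein with ankyrin repeats that acts in immune signalling, stood at 1.62 in crwn1 crwn2 and -1.39 in pwo1 in the authors' deposited tables. AED1, a protease secreted to the apoplast that restrains systemic immunity, stood at 1.72 in crwn1 crwn2 and -1.12 in pwo1 in the authors' deposited tables.

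Some calcium-binding and cell surface proteins were in this class. Of 5 shared calcium-binding proteins 3 were opposite, against 8.86% of all shared genes, a count too small to read as a feature of the family. CML41, a calmodulin-like protein of the channels between cells, stood at 1.91 in crwn1 crwn2 and -1.08 in pwo1 in the authors' deposited tables, and AT3G47480, an EF-hand protein gene, stood at 1.85 in crwn1 crwn2 and -1.25 in pwo1. CNGC3 and CNGC11, related cation channel genes that lie side by side, stood at 1.2 and 0.86 in crwn1 crwn2 and at -0.76 and -1.11 in pwo1 in the authors' deposited tables. No source used here says how reads common to such relatives were counted, so values of close copies are uncertain. WAK1, a kinase that binds pectin in the cell wall, stood at 1.84 in crwn1 crwn2 and -0.83 in pwo1 in the authors' deposited tables. RLK1, a receptor-like kinase, stood at 1.18 in crwn1 crwn2 and -0.93 in pwo1 in the authors' deposited tables.

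The class also held several enzymes. TAT3, a tyrosine aminotransferase that responds to jasmonate, stood at 1.53 in crwn1 crwn2 and -1.49 in pwo1 in the authors' deposited tables. HO3, a heme oxygenase gene, stood at 1.67 in crwn1 crwn2 and -1.88 in pwo1 in the authors' deposited tables. GSTF2, a glutathione transferase, stood at 1.37 in crwn1 crwn2 and -0.61 in pwo1 in the authors' deposited tables. COL2, a relative of the flowering regulator CONSTANS, stood at 0.45 in crwn1 crwn2 and -0.64 in pwo1 in the authors' deposited tables. Its difference of 1.09 was among the smallest of the class. HO3, BDA1, GSTF2 and COL2 overlap other annotated genes.

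The 7 genes lower in crwn1 crwn2 and higher in pwo1 included iron storage and clock-linked genes. FER1, the main leaf ferritin, stood at -1.13 in crwn1 crwn2 and 1.06 in pwo1 in the authors' deposited tables, a difference of -2.19 (interval -3.03 to -1.35). JMJ30, a histone demethylase whose expression follows the clock, stood at -0.70 in crwn1 crwn2 and 1.08 in pwo1 in the authors' deposited tables. COR27, a cold-regulated gene of the clock and light responses, stood at -0.73 in crwn1 crwn2 and 0.91 in pwo1 in the authors' deposited tables. The others were CHL, a plastid lipocalin, ENH1, a plastid rubredoxin, UPM1, an enzyme of siroheme synthesis, and AT2G13550 of unknown function, with differences from -1.38 to -1.13. FER1, UPM1 and AT2G13550 overlap other annotated genes.

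The shared genes of the response to iron shortage were higher in both mutants. Of the 13 regulators in the list, 3 bHLH transcription factors were shared. A further 3 members were listed for crwn1 crwn2 only, all higher, and 0 for pwo1 only. BHLH100 stood at 5.31 in crwn1 crwn2 and 3.58 in pwo1 in the authors' deposited tables, which are 39.7-fold and 11.97-fold. BHLH38 stood at 5.23 in crwn1 crwn2 and 3.34 in pwo1, and BHLH39 at 4.62 in crwn1 crwn2 and 3.27 in pwo1, in the authors' deposited tables. All 3 differences were above 1, and those of BHLH100 and BHLH38 had intervals just above 0 (0.035 to 3.42 and 0.10 to 3.68), whereas that of BHLH39 ran from -0.35 to 3.05. BHLH38 and BHLH39 are neighbouring relatives and BHLH38 overlaps another gene.

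The genes that carry out iron uptake leaned the other way. IRT1, the ferrous iron importer of the root, stood at 3.55 in crwn1 crwn2 and 4.05 in pwo1 in the authors' deposited tables. FRO2, the ferric chelate reductase, stood at 2.80 in crwn1 crwn2 and 3.56 in pwo1 in the authors' deposited tables. CYP82C4, a cytochrome P450 that hydroxylates coumarins for iron mobilisation, stood at 3.73 in crwn1 crwn2 and 4.67 in pwo1 in the authors' deposited tables. IREG2, a metal transporter of the vacuole that overlaps another gene, stood at 1.47 in crwn1 crwn2 and 2.02 in pwo1 in the authors' deposited tables. The median difference of these 4 was -0.66 and every one of their intervals included 0, the widest from -2.47 to 0.59. Beyond the shared genes, 7 of the 23 list members were listed for crwn1 crwn2 only, 6 higher and 1 lower. Another 7 were listed for pwo1 only, all higher. Among all genes listed for 1 mutant only, 62.6% of the 1427 for crwn1 crwn2 and 49.0% of the 731 for pwo1 were higher. Of 4 ferritin genes, besides the opposite FER1, 1 was lower in crwn1 crwn2 only and 1 higher in pwo1 only.

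The copper list had 2 shared members of 22. CSD1, a copper and zinc superoxide dismutase gene that overlaps another gene, stood at 1.37 in crwn1 crwn2 and 0.81 in pwo1 in the authors' deposited tables. PETE1, a plastocyanin, stood at -0.62 in crwn1 crwn2 and -0.80 in pwo1 in the authors' deposited tables. Outside the copper list, AT1G47395 and AT1G47400 are an adjacent pair whose products are annotated only as uncharacterized. They were also high in both, at 3.78 and 3.79 in crwn1 crwn2 and 2.23 and 2.44 in pwo1 in the authors' deposited tables.

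**Figure D3:**
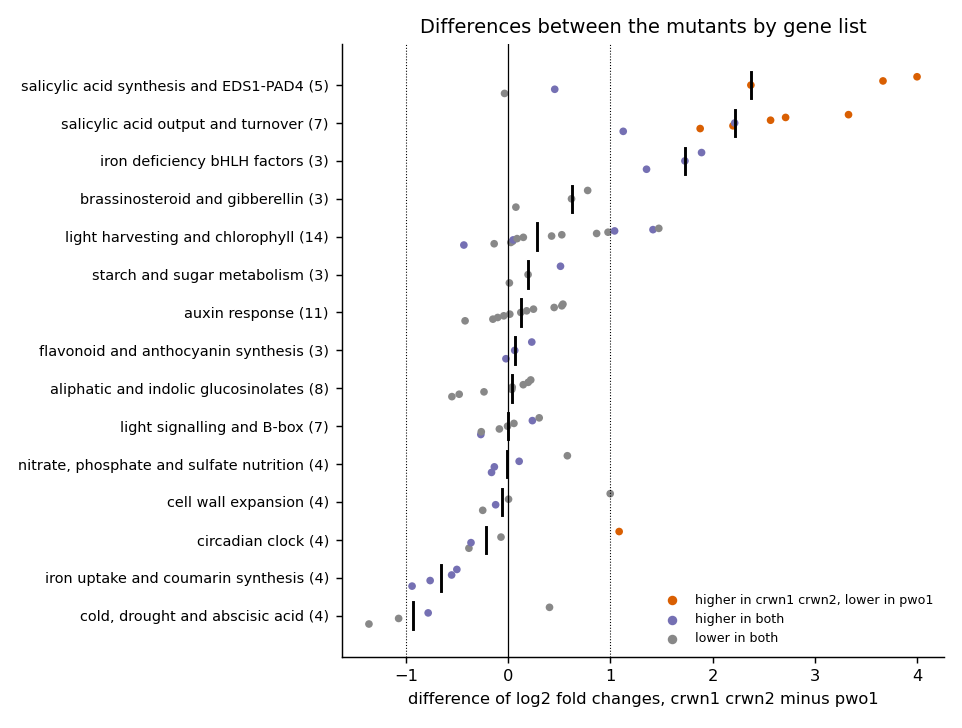
The log2 difference, crwn1 crwn2 minus pwo1, of each shared member of the gene lists with 3 or more shared genes is shown by list, with the median of each list as a bar, colours for the sign pattern and dotted lines at 1 and -1. The 5 synthesis and 7 output genes of salicylic acid, 3 and 5 of them with opposite signs, have medians of 2.37 and 2.22. The auxin and glucosinolate lists have medians of 0.12 and 0.04.

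Light-harvesting and chlorophyll genes were the largest shared list, with 14 of 43 members. In 10 both mutants were lower and in 4 both were higher, and the median difference was 0.29 by edgeR and 0.70 by Cuffdiff. By edgeR it was 0.10 over the 8 members with p under 0.001 by both tools in both tables, and 0.12 over the 10 that overlap no other gene. LHCB2.3, an antenna protein of photosystem II, stood at -0.86 in crwn1 crwn2 and -2.34 in pwo1 in the authors' deposited tables, a difference of 1.47 (interval 0.82 to 2.12). LHCB2.2 stood at -0.76 in crwn1 crwn2 and -1.62 in pwo1 in the authors' deposited tables. PORA, a protochlorophyllide reductase of chlorophyll synthesis, stood at -1.33 in crwn1 crwn2 and -2.31 in pwo1 in the authors' deposited tables. The antenna genes LHCB3 and LHCB4.2 followed in the same order of mutants, whereas PORB and HEMA1, also of chlorophyll synthesis, were close. HEMA1 stood at -0.88 in crwn1 crwn2 and -0.93 in pwo1 in the authors' deposited tables. Another 12 members were listed for pwo1 only, 11 of them lower, and 2 for crwn1 crwn2 only, both higher. Over all genes, 49.0% of the 731 listed for pwo1 only and 62.6% of the 1427 listed for crwn1 crwn2 only were higher.

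The light-harvesting genes that were higher in both are of another kind. ELIP2 and ELIP1, antenna-like proteins that appear under strong light, stood at 4.13 and 2.15 in crwn1 crwn2 and at 2.72 and 1.1 in pwo1 in the authors' deposited tables. LHCB4.3, a minor antenna protein induced by strong light, stood at 1.31 in crwn1 crwn2 and 1.26 in pwo1 in the authors' deposited tables. RBCS1B, a Rubisco small subunit gene, stood at 0.56 in crwn1 crwn2 and 0.997 in pwo1 by edgeR and at 1.12 and 1.05 by Cuffdiff in the authors' deposited tables. The antenna and small subunit genes have near-identical copies, and for LHCB1.4 the difference was 0.15 by edgeR and 0.72 by Cuffdiff. LHCB2.3, LHCB3, LHCB4.2 and PORB overlap other annotated genes.

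All 11 shared members of 43 auxin response genes were lower in both mutants, against 301 of all 508 shared genes. The median difference of the 11 was 0.12. The difference was within 0.5 in 9 of them, and in 263 of the 301 genes lower in both, which is a like share. Outside the list, AT3G12830, annotated as SAUR-like, was higher, at 1.03 in crwn1 crwn2 and 1.004 in pwo1 in the authors' deposited tables. SAUR22, a small protein that promotes cell expansion, stood at -2.10 in crwn1 crwn2 and -1.95 in pwo1 in the authors' deposited tables. SAUR19, its close relative, stood at -1.81 in crwn1 crwn2 and -1.83 in pwo1 in the authors' deposited tables. IAA29, a repressor of auxin responses that is itself induced by auxin and shade, stood at -1.77 in crwn1 crwn2 and -1.35 in pwo1 in the authors' deposited tables. SAUR genes come in clusters of near-identical copies, so single values are uncertain. A further 3 members were listed for crwn1 crwn2 only, 1 higher and 2 lower, and 10 for pwo1 only, all lower. Of all 731 genes listed for pwo1 only, 49.0% were higher.

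The shared regulators of shade and light responses were also close. PIF4, a bHLH factor that promotes growth in shade and warmth, stood at -1.36 in crwn1 crwn2 and -1.35 in pwo1 in the authors' deposited tables, and its difference of -0.0054 (interval -0.58 to 0.57) was the smallest among genes lower in both by at least 1. ATHB-2, a homeodomain factor induced by shade, stood at -1.44 in crwn1 crwn2 and -1.5 in pwo1 in the authors' deposited tables. HFR1, an atypical bHLH protein that restrains the PIF factors, stood at -1.13 in crwn1 crwn2 and -1.43 in pwo1 in the authors' deposited tables. HY5, a bZIP factor that promotes the light response, was higher, at 0.82 in crwn1 crwn2 and 0.58 in pwo1 in the authors' deposited tables. All 7 shared members of the 38 light signalling genes had a difference within 0.5, as had 377 of the 508 shared genes. A further 9 members were listed for crwn1 crwn2 only, 5 higher and 4 lower, and 6 for pwo1 only, all lower. Among all genes listed for 1 mutant only, 62.6% of the 1427 for crwn1 crwn2 and 49.0% of the 731 for pwo1 were higher.

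**Figure D4:**
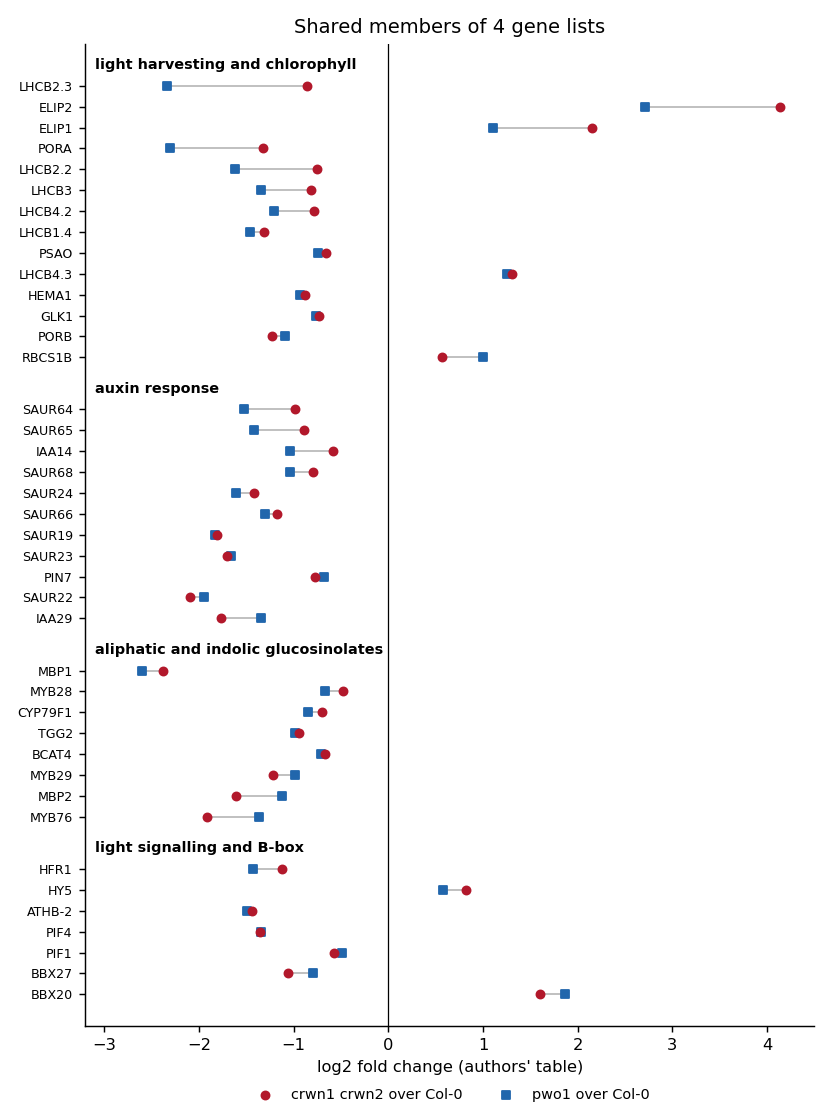
The shared members of the light-harvesting, auxin, glucosinolate and light signalling lists are drawn as rows, with the log2 fold change over Col-0 on the horizontal axis, circles for crwn1 crwn2 and squares for pwo1. LHCB2.3 has the longest line, with a difference of 1.47, and PIF4 stands at nearly the same place in both mutants.

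Aliphatic glucosinolates are sulfur-rich defence compounds made from methionine. All 8 shared members of 35 aliphatic and indolic glucosinolate genes were lower in both mutants, against 301 of all 508 shared genes. The median difference of the 8 was 0.04. The difference was within 0.5 in 7, a share like that of all genes lower in both. MYB76, MYB29 and MYB28, the activators of the pathway, stood at -1.92, -1.22 and -0.48 in crwn1 crwn2 and at -1.37, -0.98 and -0.67 in pwo1 in the authors' deposited tables. MBP1, a myrosinase-binding protein, was among the lowest of all shared genes, at -2.38 in crwn1 crwn2 and -2.60 in pwo1 in the authors' deposited tables. BCAT4, the first enzyme of methionine chain elongation, stood at -0.67 in crwn1 crwn2 and -0.71 in pwo1 in the authors' deposited tables, and it overlaps another gene. TGG2, a myrosinase that breaks glucosinolates down, stood at -0.95 in crwn1 crwn2 and -0.99 in pwo1 in the authors' deposited tables. A further 3 members were listed for crwn1 crwn2 only, 2 higher and 1 lower, and 3 for pwo1 only, all lower. The 2 higher were CYP83B1 and SOT16, each at 0.76 in crwn1 crwn2 in the authors' deposited table.

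Flavonoid genes, which make light-absorbing pigments, had 3 shared members of 25, all higher in both mutants. CHS, the entry enzyme, stood at 1.73 in crwn1 crwn2 and 1.75 in pwo1 in the authors' deposited tables, a difference of -0.02 (interval -0.88 to 0.84). FLS1, a flavonol synthase, stood at 1.46 in crwn1 crwn2 and 1.4 in pwo1 in the authors' deposited tables. TT5, chalcone isomerase, stood at 1.02 in crwn1 crwn2 and 0.79 in pwo1 in the authors' deposited tables. CHS overlaps another gene. A further member was listed for crwn1 crwn2 only, higher, and 3 for pwo1 only, 2 higher and 1 lower.

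Cold and drought genes gave some of the few larger falls in crwn1 crwn2. COR15B, which protects chloroplast membranes in frost, stood at -2.46 in crwn1 crwn2 and -1.10 in pwo1 in the authors' deposited tables, a difference of -1.36 (interval -2.29 to -0.43). COR413IM1, a protein of the chloroplast inner membrane, stood at -2.30 in crwn1 crwn2 and -1.23 in pwo1 in the authors' deposited tables, a difference of -1.07 (interval -1.93 to -0.21). GOLS2, an enzyme of raffinose synthesis, stood at -1.29 in crwn1 crwn2 and -1.69 in pwo1, and LEA7, a late embryogenesis abundant protein, at 2.6 in crwn1 crwn2 and 3.38 in pwo1, in the authors' deposited tables. The list therefore has no common direction among its 4 shared members of 35, and its median difference was -0.93, or -0.33 without COR15B and LEA7, which overlap other genes. A further 9 members were listed for crwn1 crwn2 only, all lower, and 3 for pwo1 only, 2 higher and 1 lower. Of all 1427 genes listed for crwn1 crwn2 only, 62.6% were higher.

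The remaining hormone and development lists had 1 to 4 shared members each. AOS, which commits linolenic acid products to jasmonate, stood at -1.28 in crwn1 crwn2 and -1.41 in pwo1 in the authors' deposited tables. The only other shared jasmonate gene, TAT3, was opposite. SVP, a repressor of flowering, stood at -0.75 in crwn1 crwn2 and -0.80 in pwo1 in the authors' deposited tables. GI, a clock protein, stood at -0.59 in crwn1 crwn2 and -0.52 in pwo1 in the authors' deposited tables. The values of AOS, SVP and GI were lower in both mutants and close in size. Of 30 clock genes 4 were shared. A further 13 were listed for pwo1 only, 3 higher and 10 lower, and 4 for crwn1 crwn2 only, 3 higher and 1 lower. Over all genes 731 were listed for pwo1 only, 49.0% of them higher, and 1427 for crwn1 crwn2 only, 62.6% of them higher. PRE1, a small HLH protein of gibberellin and brassinosteroid growth responses, stood at -1.02 in crwn1 crwn2 and -1.80 in pwo1 in the authors' deposited tables. RAP2.6, a stress-induced ERF factor, stood at 1.72 in crwn1 crwn2 and 1.28 in pwo1 in the authors' deposited tables.

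The shared nutrition, sugar and wall genes were likewise on the same side in both mutants. Other members were listed for 1 mutant only. For crwn1 crwn2 these were 3 nutrition genes (3 higher), 7 starch and sugar genes (6 higher) and 9 wall expansion genes (2 higher). For pwo1 they were 10 (4 higher), 6 (2 higher) and 3 (2 higher) in the same order. Among all genes listed for 1 mutant only, 62.6% of the 1427 for crwn1 crwn2 and 49.0% of the 731 for pwo1 were higher. Of the 4 shared nutrition genes 3 were higher in both and 1 lower in both. The lower gene was LSU3, of the sulfur starvation response, at -1.19 in crwn1 crwn2 and -1.77 in pwo1 in the authors' deposited tables. NIA1, among the 3 higher, stood at 0.86 in crwn1 crwn2 and 0.99 in pwo1 in the authors' deposited tables. SWEET13, a sucrose exporter, stood at -1.69 in crwn1 crwn2 and -1.88 in pwo1 in the authors' deposited tables. MIOX2, an inositol oxygenase, stood at 1.85 in crwn1 crwn2 and 1.34 in pwo1 in the authors' deposited tables. Among 16 annotated cell wall enzymes, which loosen or remodel the wall, 14 were lower in both and 2 higher in both. Of all 508 shared genes 301 were lower in both and 162 higher in both. In 15 of the wall enzymes the difference was within 0.5, again near the share over all genes lower in both. The exception was EXPA8, an expansin, at -0.95 in crwn1 crwn2 and -1.95 in pwo1 in the authors' deposited tables. The pathway lists with 0 shared genes were the 26 heat and endoplasmic reticulum folding genes, the 21 Polycomb group genes and the 12 lamina genes. As 1.34% of all reference loci were shared, 0 in lists of this size is not read as a result. The lamina list matched 12 of its 20 symbols. Of the 26 folding genes, 12 were listed for crwn1 crwn2 only and 2 for pwo1 only, all higher, against 62.6% and 49.0% of all genes so listed. That list leaves out PDIL2-2, annotated as PDI-like and shared, at 0.88 in crwn1 crwn2 and 0.64 in pwo1 in the authors' deposited tables.

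Receptor-like kinases were mixed. Of 9 shared genes whose annotation names a receptor-like kinase in set words, which leaves out WAK1, 4 were higher in both, 3 lower in both and 2 opposite. IOS1, a kinase with leucine-rich repeats that acts with pattern receptors, stood at 2.48 in crwn1 crwn2 and 1.22 in pwo1 in the authors' deposited tables, a difference of 1.26 (interval 0.50 to 2.02). Its neighbour AT1G51790 stood at 2.15 in crwn1 crwn2 and 0.98 in pwo1 in the authors' deposited tables. The 3 shared immune receptors of the NBS-LRR and TIR type were all higher in both, with differences from 0.24 to 0.58. The gene with 0.58, AT1G17600, overlaps another gene. Of 20 transporters 13 were lower in both, a share like that of all shared genes, 301 of 508. AAP3, an amino acid permease that overlaps another gene, had the largest difference among the transporters higher in both. It stood at 2.29 in crwn1 crwn2 and 1.08 in pwo1 in the authors' deposited tables. A cluster of adjacent genes, AT4G15670, AT4G15680, AT4G15690 and AT4G15700, encodes thioredoxin-fold proteins. They stood at 1.68, 2.2, 1.5 and 1.16 in crwn1 crwn2 and at 1.57, 1.85, 1.42 and 1.2 in pwo1 in the authors' deposited tables.

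Outside the named pathways, a few genes with the same sign differed widely in size. AT5G57345, of unknown function, stood at -5.54 in crwn1 crwn2 and -0.80 in pwo1 in the authors' deposited tables, and its difference of -4.74 (interval -5.22 to -4.25) was the largest of all in size. AT1G77960 stood at -3.30 in crwn1 crwn2 and -5.16 in pwo1 in the authors' deposited tables. Both overlap other annotated genes. AT3G46280, annotated as kinase-like, stood at 2.52 in crwn1 crwn2 and 0.75 in pwo1, and AT1G13609, a defensin-like gene, at 3.62 in crwn1 crwn2 and 1.96 in pwo1, in the authors' deposited tables. AT1G66100, a thionin gene that overlaps another gene, was lower in both, at -1.53 in crwn1 crwn2 and -2.61 in pwo1 in the authors' deposited tables. NAC044, a NAC transcription factor that acts after DNA damage, stood at 2.98 in crwn1 crwn2 and 1.84 in pwo1 in the authors' deposited tables, a difference of 1.15 (interval -0.09 to 2.39).

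**Figure D5:**
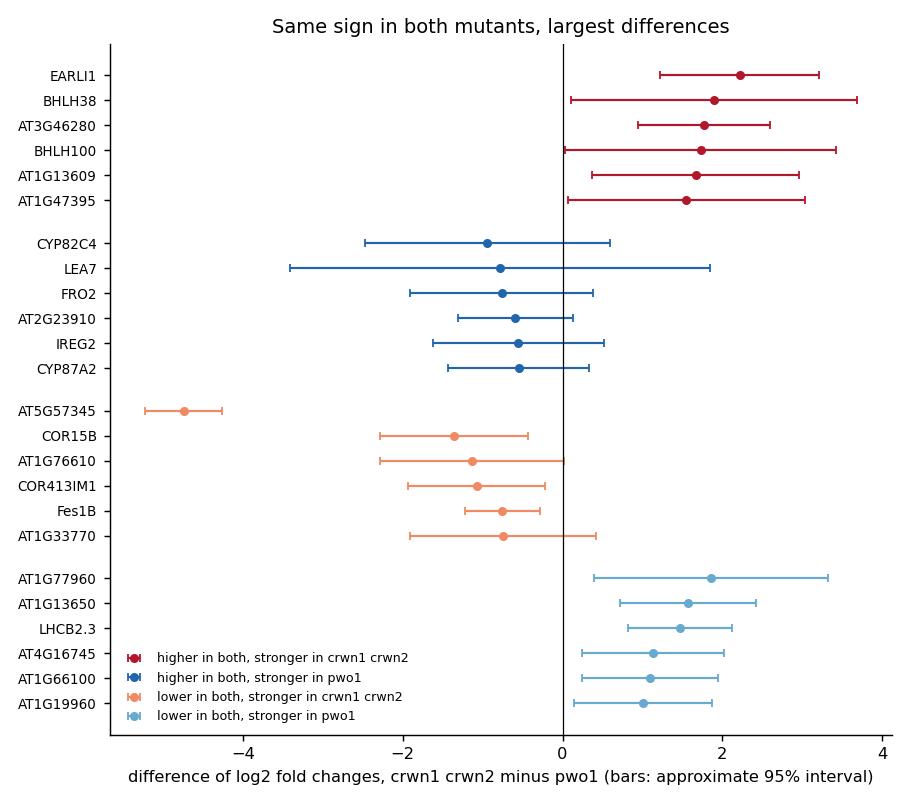
Genes of the same sign with the largest differences are drawn as points of the log2 difference, crwn1 crwn2 minus pwo1, with the approximate 95% interval as a bar. AT5G57345 lies apart at -4.74, and the intervals of the genes stronger in pwo1 among those higher in both include 0.

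Shared genes were spread over the 5 chromosomes, with 142 on chromosome 1, 87 on chromosome 2, 91 on chromosome 3, 68 on chromosome 4 and 120 on chromosome 5. The median difference per chromosome lay between 0.02 on chromosome 4 and 0.11 on chromosome 3. Adjacent shared genes formed 28 pairs, of which 23 had the same sign pattern and 2 were pairs of opposite genes, CNGC3 with CNGC11 and AT1G24145 with AT1G24147. By annotation 502 shared genes code for protein and 6 are pseudogenes, and 106 overlap another annotated gene. No source used here says whether counting used the strand, so reads of overlapping genes cannot be assigned with certainty. The difference had the same sign by Cuffdiff for 467 of the 508 genes, among them all 45 opposite genes. With p under 0.001 by both tools in both tables, 279 shared genes were left, 160 lower in both, 87 higher in both, 28 higher and 4 lower in crwn1 crwn2 with the opposite sign in pwo1.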

How the data were processed

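RNA-seq of crwn1 crwn2, pwo1 and Col-0 seedlings was read from 2 tables of the authors' own comparisons. The deposited values are, per the file headers, log2 fold changes and p-values, once by edgeR and once by Cuffdiff. The submitters' processing notes name the build TAIR10 and, as the authors' tools, edgeR 3.3, Cuffdiff 2.2.1, HTSeq 0.6.1, TopHat2 2.0.12 and Trimmomatic 0.35, among others. No source used here gives the normalization, filters, listing threshold, p-value adjustment or strand setting. An unlisted gene could have missed a filter or a threshold, which would hold down every count of shared genes.

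The tables were joined by locus (Python 3.11.15, pandas 2.3.3), and log2 values of pwo1 were subtracted from those of crwn1 crwn2. Standard errors were implied from the authors' edgeR log2 fold change and p-value under a normal approximation (scipy 1.17.1), combined per gene, and the step was tested on simulated data. The shared Col-0 was ignored, which tends to widen the intervals. Gene names came from a RefSeq annotation of TAIR10.1, in which all 508 loci were found. Promoters, sequences and the motif search that had been planned were not used here. Of 768 symbols in 27 gene lists 710 matched, giving 669 genes. The members, the lists and the 20 word-based families were chosen with earlier results of these data known, and some list entries and family words were corrected after the tables were seen.

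Named genes are, by the authors' edgeR values: up to 12 per opposite pattern and 8 per shared sign with the largest smaller fold change; up to 6 with the largest difference per sign and stronger mutant; up to 6 per sign with the closest values where both were at least 1; up to 6 members per list; and up to 3 per family. Other genes named in the text were chosen after their values were seen. Alternatives were Cuffdiff values, p under 0.001 in both tools and tables, a smaller log2 fold change of at least 0.5, no overlapping genes, and other sizes of the difference.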

Additional observations from a re-analysis of the deposited data

How the results depend on the processing

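The sign of a list's median difference changed only for lists with medians near 0. With p under 0.001 by both tools in both tables, the median was -0.24 over 3 glucosinolate genes, -0.04 over 7 auxin genes, 0.0041 over 3 cell wall expansion genes and 0.11 for 1 nutrition gene. The light signalling median of -0.0054 was above 0 under 3 alternatives, at most 0.06. The medians of the salicylic acid, iron, light-harvesting and cold lists kept their sign under the alternatives run, though under this p limit the cold median rests on 1 gene and that of salicylic acid synthesis on 2. Counts that moved by more than 1.5 times were as follows. Under this p limit 279 genes were shared, 160 lower in both, 87 higher in both and 4 lower in crwn1 crwn2 and higher in pwo1, with a difference of -1 or less in 6 and within 0.5 in 193. Without genes overlapping another annotated gene, 4 were lower in crwn1 crwn2 and higher in pwo1 and 6 had a difference of -1 or less. At 0.5 times the size of the difference 106 genes were at or above the limit and 25 at or below its negative, and at 1.5 times the size 4 were at or below the negative. These follow from the smaller or larger set each setting admits. The other 26 alternatives stayed within 1.5 times, and the share of opposite genes was between 8.21% and 11.5%. No paired analysis was possible because the tables hold no values per library, and for the same reason no replicate could be left out and depth sets no limit that can be computed.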
